A study of Rattus norvegicus with 24 samples.

Results

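Skeletal muscle genes for excitation-contraction coupling and energy supply were followed through rat skin 7 days after an injection of gel or saline. The set was defined by a list of 33 gene symbols, and a gene belonged to it where the deposited table carried that symbol. The table held 23095 genes and 31 of the symbols. Parvalbumin (Pvalb) had no symbol in the table and was found by its Entrez number through RefSeq, so its values stand beside those of the 31 and are not counted with them. Atp2a1, the calcium pump of fast fibres, was not analysed here. All samples were dorsal skin of Sprague-Dawley rats taken on day 7, in 4 groups of 6 libraries: intradermal injection of T-gel, a biodegradable polymer gel (ID gel), intradermal injection of saline (ID saline), subcutaneous injection of T-gel (SC gel) and subcutaneous injection of saline (SC saline). The labels of the gel libraries give the injection site alone, and the gel itself is named in the study's design text. Whether the replicates of a group were separate animals is not stated in the labels, so p-values describe the spread between these samples only.

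When a muscle fibre fires, sodium and chloride channels of the surface membrane shape the action potential, the voltage sensor in the transverse tubule senses it, and the ryanodine receptor opposite it releases calcium from the sarcoplasmic reticulum. Calcium-binding proteins hold the store inside the reticulum, pumps return the calcium, and creatine kinase, glycogen breakdown and glycolysis renew the ATP that contraction uses. In rodents a thin sheet of skeletal muscle, the panniculus carnosus, lies under the dermis of the back, so a piece of dorsal skin can hold more or less muscle. In bulk tissue, fewer muscle cells and less RNA per muscle cell cannot be told apart.

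The set's label was checked against sarcomere genes, which are not part of it. The summed level of 21 sarcomere genes, in CPM (counts relative to library size, scaled with TMM factors), was 2046, 66.8, 3009, 20.7, 20983 and 19.1 in ID gel replicates 1 to 6, against 61774 to 77261 in ID saline. In SC gel replicates 1 to 6 it was 2507, 20.5, 565, 21.2, 34.2 and 28.1 CPM, against 35660 to 87472 CPM in SC saline, so skeletal muscle RNA was present in every saline library. Thus 5 gel libraries held over 500 CPM and the other 7 at most 66.8 CPM. Other cell types moved with the groups: 5 keratinocyte genes summed to 1465 to 5376 CPM in ID gel, against 5430 to 10346 CPM in ID saline, and to 13234 to 20222 CPM in SC gel, against 5182 to 7038 CPM in SC saline. The sum of 8 macrophage genes was 7335 to 9547 CPM in ID gel, against 575 to 1452 CPM in ID saline, and 949 to 3040 CPM in SC gel, against 824 to 1123 CPM in SC saline. The part of these in the results below was not tested. Library sums ran from 14024353 to 18821730 counts. The summed level of the 31 genes was 28.6 to 39.3% of the sarcomere total in the 5 gel libraries with over 500 CPM of sarcomere RNA and 136 to 383% in the other 7 gel libraries, against 29.0 to 33.6% in saline libraries.

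For 25 of the 31 genes RefSeq gave a promoter window of 300 bases, 250 before the start of the gene and 50 after it (GRCr8). The E-box CAGCTG, read the same on both strands, stood in 11 of these 25 windows (44.0%) and in 15.1% of the 33465 windows of all genes. The E-box CACCTG, searched on both strands, stood in 9 of 25 (36.0%) and in 18.8% of all windows. E-boxes are known as binding letters of the MyoD family of muscle factors. A MEF2 motif was found in 3 of 25 windows (12%), those of Casq2, Ampd1 and Clcn1, and in 3.29% of all windows. A CArG box was found in 0 of 25 and in 1.64% of all windows. The matches are descriptions of letters and not binding sites. The 150 bases before the start of 4 genes are shown as examples with and without the searched letters, from genes of energy supply, the surface membrane and the junction, with matches in capitals. They lie at chr1:88189311-88189460 (+ strand), chr4:72139028-72139177 (+ strand), chr14:84897875-84898024 (- strand) and chr3:172477922-172478071 (- strand). Of the searched letters, Ckm holds 1 E-box, Clcn1 an E-box and a MEF2 motif, Pgam2 a pair of neighbouring E-boxes, and Jph2 none in the stretch shown. Other forms of the E-box were not searched and are not marked.
Ckm: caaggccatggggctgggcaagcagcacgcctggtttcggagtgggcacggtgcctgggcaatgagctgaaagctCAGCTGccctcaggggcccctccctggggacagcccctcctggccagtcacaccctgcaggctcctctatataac
Clcn1: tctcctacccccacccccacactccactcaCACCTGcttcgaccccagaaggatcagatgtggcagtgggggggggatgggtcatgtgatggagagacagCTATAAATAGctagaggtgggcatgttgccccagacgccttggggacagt
Pgam2: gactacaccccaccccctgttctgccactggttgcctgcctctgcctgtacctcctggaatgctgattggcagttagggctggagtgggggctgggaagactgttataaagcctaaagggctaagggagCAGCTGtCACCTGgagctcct
Jph2: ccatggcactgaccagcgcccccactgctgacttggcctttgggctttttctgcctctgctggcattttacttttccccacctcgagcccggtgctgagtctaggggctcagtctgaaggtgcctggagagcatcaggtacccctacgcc

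The first question was how the genes stood in gel against saline at the intradermal site. All 31 were lower in ID gel by the quasi-likelihood test of edgeR, with p-values adjusted by Benjamini-Hochberg over 14763 tested genes, where 37.0% of all tested genes were lower. Their log2 fold changes ran from -5.26 (Aqp4) to -2.27 (Jph2) with a median of -4.13, beside a median of -0.01 over all tested genes. At the subcutaneous site all 31 were lower in SC gel as well, where 26.1% of all tested genes were lower. There the log2 fold changes ran from -9.97 (Lrrc30) to -3.20 (Phka1) with a median of -6.07, beside -0.00388 over all tested genes. In each of the 31 genes all 6 gel libraries lay below all 6 saline libraries of the same site, as did those of 27.5% of tested genes at the intradermal and 14.0% at the subcutaneous site. All 31 had passed the filter on low counts, which their saline levels alone could satisfy. Without ID gel replicate 5 the log2 fold changes at the intradermal site ran from -7.33 (Lrrc30) to -2.52 (Jph2) with a median of -5.84, and without SC gel replicate 1 those at the subcutaneous site ran from -11.72 (Lrrc30) to -3.24 (Phka1) with a median of -7.63. Limma voom gave -9.98 for Ckm and -10.48 for Mb in ID gel, against -4.23 and -4.06 by edgeR. The counts stayed at 31 with ID gel replicate 5 and SC gel replicate 1 left out together, and at the subcutaneous site with SC saline replicates 1 and 3 left out.

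**Figure D1:**
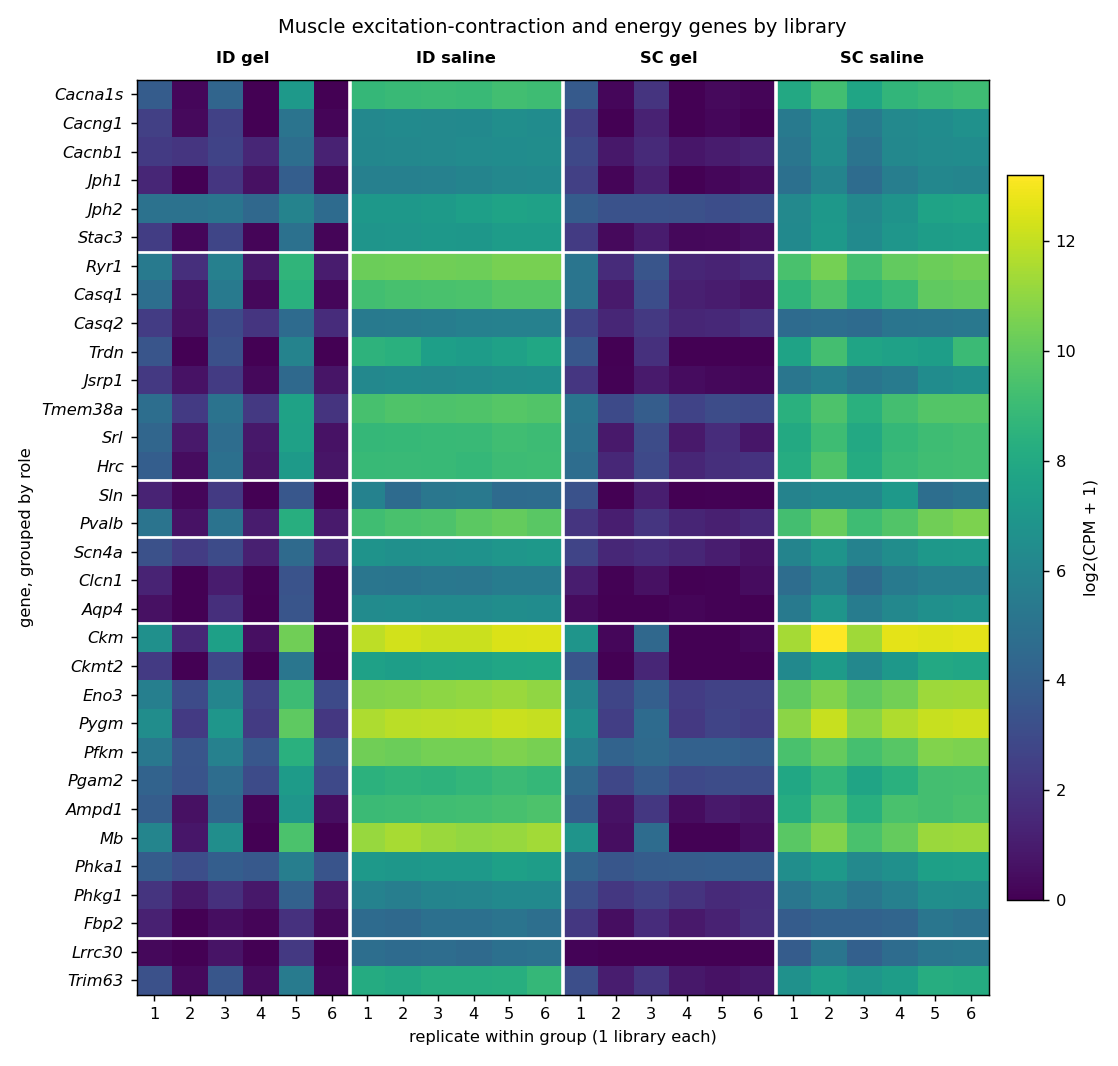
Level of the 31 genes and Pvalb in each of the 24 libraries, as log2(CPM + 1) on a colour scale, with genes in rows grouped by role and libraries in columns grouped by treatment and site. ID gel replicates 1, 3 and 5 and SC gel replicates 1 and 3 kept visible levels of most genes, and all saline libraries were high.

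The voltage sensor and the junction that couples it to the reticulum came first in the chain. Cacna1s, the pore of the voltage sensor, stood at 0, 6.87 and 135 CPM in ID gel (lowest, median and highest library), against 448, 501 and 598 CPM in ID saline. In SC gel it stood at 0, 0.217 and 12.5 CPM, against 220, 458 and 585 CPM in SC saline. Gel and saline libraries did not overlap at either site, with log2 fold changes of -4.21 ± 1.18 (SE) at the intradermal (adjusted p = 0.00268) and -7.27 ± 1.38 at the subcutaneous site (adjusted p = 0.000138). Its partners Cacng1 and Cacnb1, the gamma and beta subunits, changed by -3.48 and -3.48 in ID gel and by -6.05 and -5.00 in SC gel. Stac3, the adaptor that links the voltage sensor to the ryanodine receptor, changed by -4.35 and -6.88. Jph1, which holds the tubule and the reticulum together, changed by -4.20 in ID gel and by -5.42 in SC gel.

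Jph2, the other junctophilin and the main one of the heart, had the smallest change of the 31 at the intradermal site. It stood at 21.4, 31.0 and 59.8 CPM in ID gel, against 129, 159 and 199 CPM in ID saline. At the subcutaneous site it stood at 7.75, 8.94 and 13.4 CPM, against 69.8, 121 and 214 CPM in SC saline. The log2 fold changes were -2.27 ± 0.27 (adjusted p = 7.48e-08) and -3.83 ± 0.29 (adjusted p = 1.59e-09). The lowest gel library held 13.5% of the saline median at the intradermal and 6.39% at the subcutaneous site.

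Ryr1, the release channel itself, stood at 0.814, 21.4 and 402 CPM in ID gel, against 1201, 1286 and 1472 CPM in ID saline. SC gel libraries held 1.53, 2.08 and 34.5 CPM, against 613, 1143 and 1397 CPM in SC saline. The highest gel libraries were ID gel replicate 5 and SC gel replicate 1, and the log2 fold changes were -3.99 ± 1.10 (adjusted p = 0.00242) and -6.92 ± 1.27 (adjusted p = 9.43e-05).

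Casq1, the fast-fibre calsequestrin that binds calcium inside the reticulum, stood at 0.179, 13.3 and 335 CPM in ID gel, against 597, 693 and 860 CPM in ID saline. The subcutaneous gel group had 0.686, 1.10 and 32.7 CPM, against 352, 619 and 1102 CPM in SC saline. The groups of a site did not overlap, and the log2 fold changes were -3.43 ± 1.19 (adjusted p = 0.0127) and -6.53 ± 1.39 (adjusted p = 0.000444). Casq2, the calsequestrin of slow fibres and heart, had smaller log2 changes. It stood at 0.499, 3.63 and 24 CPM in ID gel, against 42.7, 50.1 and 55.9 CPM in ID saline, a log2 fold change of -2.86 ± 0.49 (adjusted p = 1.4e-05). In SC gel it stood at 1.67, 2.29 and 5.35 CPM, against 23.7, 30.7 and 38.1 CPM in SC saline, a log2 fold change of -3.43 ± 0.52 (adjusted p = 8.9e-06).

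Triadin (Trdn), which anchors calsequestrin to the release channel, was at 0 counts in 3 ID gel and 4 SC gel libraries and changed by -4.23 and -7.07. The remaining store genes were Jsrp1, a junctional protein that binds the voltage sensor, Tmem38a, a cation channel of the reticulum, Srl (sarcalumenin), a luminal calcium binder, and Hrc, another luminal calcium binder. Their log2 fold changes ran from -4.13 to -3.65 in ID gel and from -6.17 to -5.62 in SC gel.

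Sarcolipin (Sln), a small peptide that restrains the calcium pump, stood at 0, 0.847 and 11.2 CPM in ID gel, against 23.2, 30.3 and 57.1 CPM in ID saline. At the subcutaneous site it stood at 0, 0.0263 and 8.98 CPM, against 26.7, 63.5 and 143 CPM in SC saline. It was at 0 in 2 ID gel and 3 SC gel libraries, and its log2 fold changes were -3.61 ± 0.91 (adjusted p = 0.00102) and -5.23 ± 0.96 (adjusted p = 9.43e-05). Pvalb, the cytosolic calcium buffer that speeds relaxation of fast fibres, stood at 0.561, 16.1 and 314 CPM in ID gel, against 572, 827 and 1106 CPM in ID saline. SC gel libraries held 1.2, 1.71 and 3.18 CPM, against 559, 964 and 1533 CPM in SC saline. The log2 fold changes were -3.70 ± 0.97 (adjusted p = 0.0015) and -8.91 ± 1.24 (adjusted p = 3.37e-06). No SC gel library was above 0.33% of the saline median of that gene, whereas ID gel replicate 5 reached 37.9%.

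The surface membrane genes were Scn4a, the muscle sodium channel, Clcn1, the muscle chloride channel, and Aqp4, a water channel of fast fibres and of glia. Aqp4 stood at 0, 0.251 and 10.1 CPM in ID gel, against 78.7, 83.7 and 86.6 CPM in ID saline. The subcutaneous gel group had 0, 0.0263 and 0.311 CPM, against 40.5, 85.2 and 116 CPM in SC saline. It was at 0 in 3 libraries of each gel group, with log2 fold changes of -5.26 ± 0.68 (adjusted p = 2.77e-07) and -9.76 ± 0.98 (adjusted p = 4.65e-08). Scn4a changed by -3.87 in ID gel and -5.48 in SC gel, and Clcn1 by -4.28 and -6.82.

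**Figure D2:**
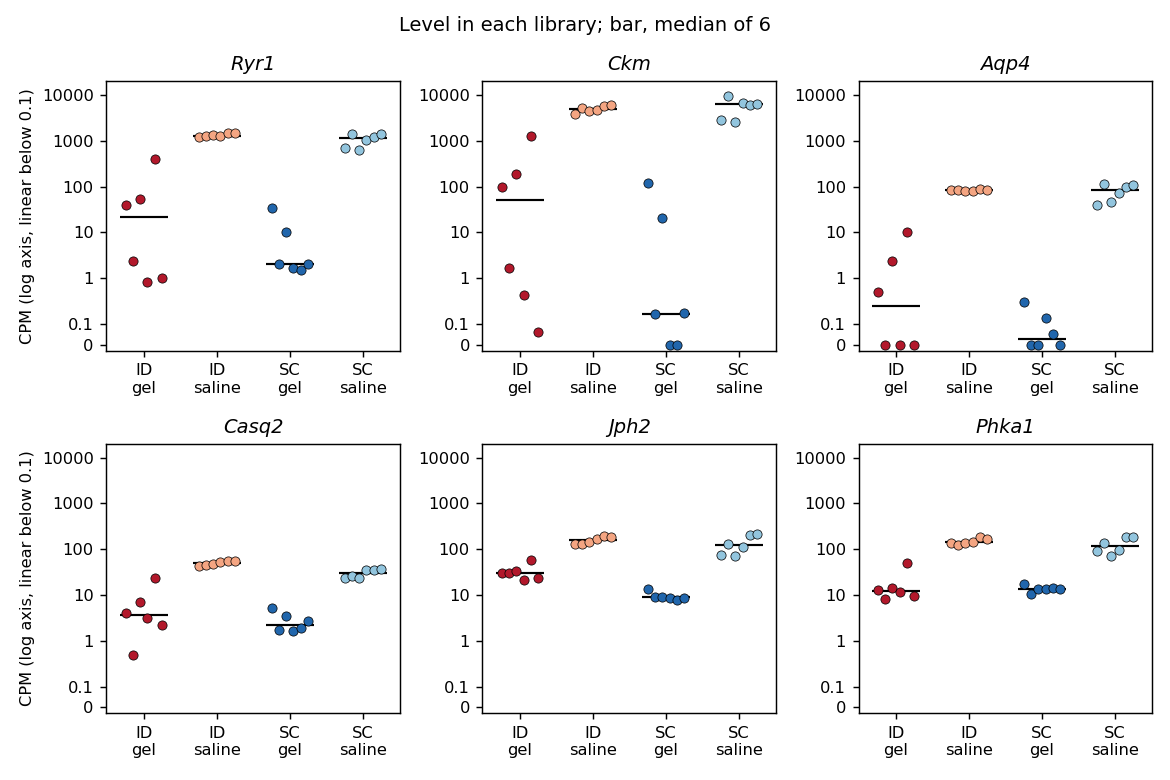
CPM of Ryr1, Ckm, Aqp4, Casq2, Jph2 and Phka1 in each library, on a log axis that is linear below 0.1, with 1 point per library and a bar at the group median (n = 6). Jph2 and Phka1 stayed between 7.75 and 59.8 CPM in every gel library, and Ckm spread from 0 to 1295 CPM.

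Ckm, the muscle creatine kinase that buffers ATP, had the highest length-scaled level of the set in saline, with medians of 3422 FPKM in ID saline and 4017 FPKM in SC saline. In CPM it stood at 0.0598, 50.1 and 1295 CPM in ID gel, against 3854, 4822 and 5931 CPM in ID saline. In SC gel it stood at 0, 0.171 and 119 CPM, against 2558, 6250 and 9497 CPM in SC saline. Gel libraries spread more widely on the log axis than saline libraries, and the log2 fold changes were -4.23 ± 1.65 (adjusted p = 0.0246) and -7.91 ± 1.96 (adjusted p = 0.00178). Ckmt2, its mitochondrial counterpart, changed by -4.73 and -6.18 and was at 0 in 3 ID gel and 4 SC gel libraries.

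Pygm, the muscle glycogen phosphorylase, stood at 3.47, 46.2 and 971 CPM in ID gel, against 3108, 3863 and 4616 CPM in ID saline. At the subcutaneous site it stood at 3.54, 5.04 and 93.0 CPM, against 1835, 3749 and 4750 CPM in SC saline. The log2 fold changes were -4.29 ± 1.15 (adjusted p = 0.00183) and -7.24 ± 1.32 (adjusted p = 8.65e-05). Myoglobin (Mb), the oxygen store, stood at 0, 32.7 and 717 CPM in ID gel, against 2140, 2336 and 2840 CPM in ID saline. SC gel libraries held 0.0527, 0.371 and 114 CPM, against 682, 1385 and 2463 CPM in SC saline. Its log2 fold changes were -4.06 ± 1.58 (adjusted p = 0.0243) and -6.05 ± 1.74 (adjusted p = 0.00582).

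The glycolytic enzymes Eno3 (enolase), Pfkm (phosphofructokinase) and Pgam2 (phosphoglycerate mutase) changed by -4.19, -4.19 and -3.55 in ID gel and by -6.69, -5.56 and -5.34 in SC gel. Ampd1, which deaminates AMP in working muscle, changed by -4.54 and -7.41. Phka1 and Phkg1, the alpha and gamma subunits of the kinase that activates glycogen phosphorylase, and Fbp2, the muscle fructose bisphosphatase, changed by -3.20, -3.93 and -3.60 in SC gel. In ID gel they changed by -3.06, -3.97 and -5.05, that of Fbp2 being among the larger of the set. Phka1 stood at 8.04, 12.5 and 49.4 CPM in ID gel, against 125, 141 and 181 CPM in ID saline, and at 10.5, 13.8 and 17.1 CPM in SC gel, against 72.7, 117 and 188 CPM in SC saline. Its log2 fold change in ID gel was -3.06 ± 0.35 (adjusted p = 3.7e-08).

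Trim63 (MuRF1), a ubiquitin ligase that rises when muscle wastes, was low as well. It stood at 0.179, 4.45 and 43.7 CPM in ID gel, against 248, 302 and 438 CPM in ID saline. The subcutaneous gel group had 0.58, 0.941 and 8 CPM, against 103, 171 and 300 CPM in SC saline. The log2 fold changes were -4.88 ± 0.87 (adjusted p = 2.36e-05) and -6.30 ± 0.95 (adjusted p = 9.19e-06). Lrrc30, a leucine-rich repeat gene, had 2 counts in all SC gel libraries together, against 2476 in SC saline, a ratio of 0.000726 with an exact 95% interval of 8.79e-05 to 0.00262 that covers counting error only.

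**Figure D3:**
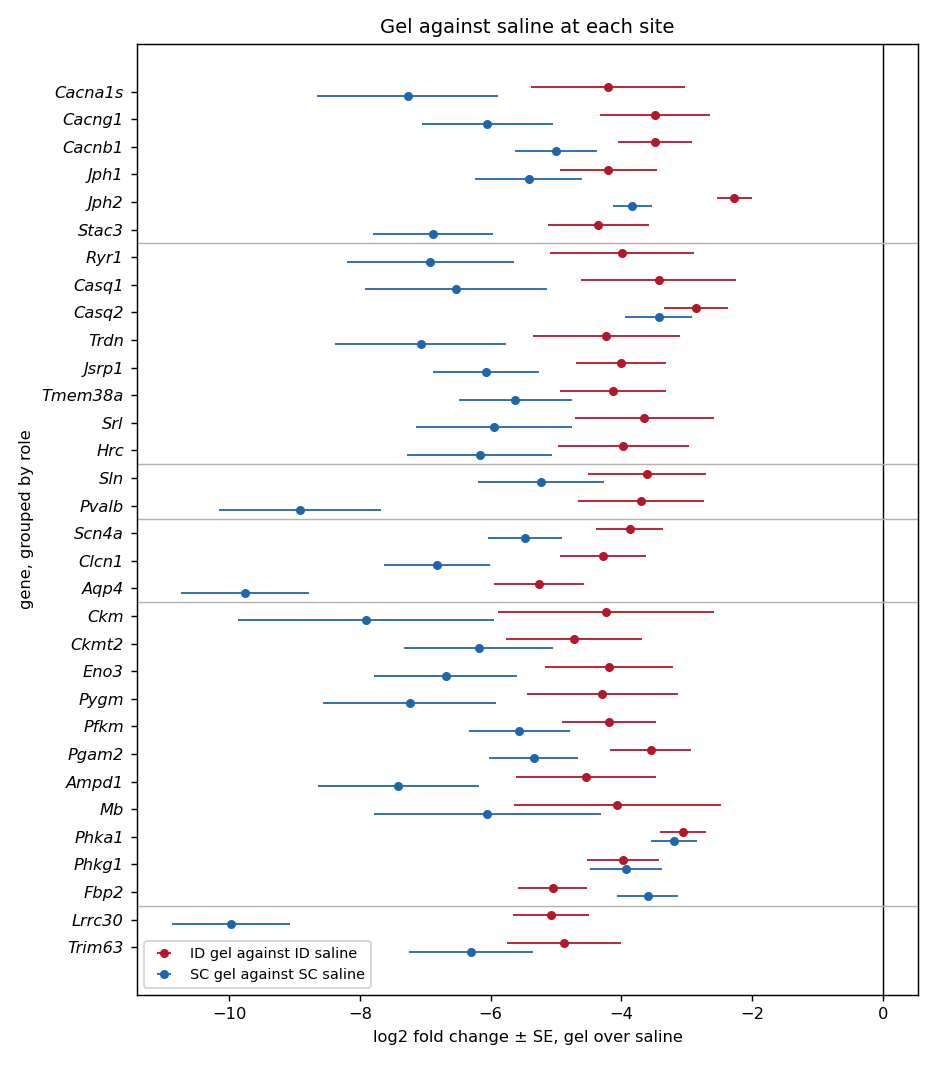
Log2 fold change with its SE for each gene, ID gel against ID saline in red and SC gel against SC saline in blue, from the model fitted to all 24 libraries. All points lie left of 0, the intradermal ones between -5.26 and -2.27 and the subcutaneous ones between -9.97 and -3.20.

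In the 7 gel libraries with at most 66.8 CPM of sarcomere RNA, Ckm was at 0 to 1.68 CPM, against at least 2558 CPM in any saline library. Jph2 was at 7.75 to 30.8 CPM there, against at least 69.8 CPM, and Phka1 at 8.04 to 14.4 CPM, against at least 72.7 CPM. The lowest gel library held 5.69% of the saline median of Phka1 at the intradermal and 8.97% at the subcutaneous site. For Casq2 these shares were 0.996% and 5.44%, and for Pgam2 1.58% and 1.60%. For Ckm they were 0.00124% and 0%.

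In the 5 gel libraries with over 500 CPM of sarcomere RNA, each gene was also set against the sarcomere total of its own library. The limit of 500 CPM was chosen after the totals were seen, and these values are a description with no test. Ryr1 was at 0.982 to 1.08 times the saline median in ID gel replicates 1, 3 and 5 and at 0.756 and 1.01 times in SC gel replicates 1 and 3. Ckm, Pygm, Ampd1, Aqp4 and Lrrc30 lay below all 12 saline libraries in all 5. Ckm was at 0.655, 0.833 and 0.840 times the saline median in ID gel replicates 1, 3 and 5 and at 0.647 and 0.501 times in SC gel replicates 1 and 3. Aqp4 was at 0.204, 0.661 and 0.398 times in the ID gel libraries and at 0.103 and 0 times in the SC gel libraries. Cacng1, Cacnb1, Casq2, Jph2 and Srl lay above all 12 saline libraries in all 5. The share of all genes that lay below or above in this way was not computed. Casq2 was at 3.07, 3.56 and 1.72 times in the ID gel libraries and at 3.22 and 9.39 times in the SC gel libraries. Jph2 and Casq2 also stood at 7.75 to 30.8 CPM and 0.499 to 3.11 CPM in the gel libraries with at most 66.8 CPM of sarcomere RNA. In those libraries Cacnb1 stood at 0.73 to 3.18 CPM, Srl at 0.54 to 2.16 CPM and Cacng1 at 0 to 0.249 CPM. The part of these levels in the ratios was not tested.

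Pvalb, Sln, Fbp2 and Phkg1 were among the genes whose ratio did not overlap between the ID gel and the SC gel libraries. Others included Cacna1s, Hrc, Tmem38a, Ckm, Mb, Pfkm, Jph1, Cacnb1, Ckmt2, Phka1, Srl, Aqp4 and Lrrc30, so this split was not particular to them. With so few libraries a split of this kind can come by chance. The share of all genes that split between these libraries was not computed. Jph1, for example, was at 1.02, 1.37 and 0.863 times the saline median in ID gel replicates 1, 3 and 5. It was at 2.35 and 2.78 times in SC gel replicates 1 and 3. Pvalb was at 1.19, 0.773 and 1.11 times the saline median in ID gel replicates 1, 3 and 5, and at 0.0941 and 0.419 times in SC gel replicates 1 and 3. Sln was at 1.33, 2.25 and 0.965 times in those ID gel libraries and at 6.46 and 3.62 times in those SC gel libraries. Its share of the sarcomere total was 0.03 to 0.0925% in ID saline and 0.0359 to 0.22% in SC saline, so SC gel replicate 1, at 0.358%, was the 1 gel library above all saline libraries, and SC gel replicate 3, at 0.201%, lay within SC saline. Fbp2 was at 1.68, 0.353 and 0.347 times the saline median in the ID gel libraries and at 3.63 and 10.1 times in the SC gel libraries, and Phkg1 at 1.56, 0.897 and 0.806 times and at 3.37 and 9.23 times. In SC gel libraries with at most 34.2 CPM of sarcomere RNA Fbp2 still stood at 0.398 to 2.46 CPM and Phkg1 at 2.002 to 3.47 CPM, and the part of that level in their ratios was not tested. The summed level of slow-fibre genes was 0.702, 0.600 and 0.521% of the sarcomere total in the ID gel libraries, against 2.24 to 3.15% in ID saline. In the SC gel libraries it was 3.75 and 3.81%, against 0.123 to 1.16% in SC saline. Myh7, the slow myosin of that list, was low there. It made up 0.312 of 94.1 CPM and 0.170 of 21.5 CPM of that sum in SC gel replicates 1 and 3. In SC saline its lowest level was 11.1 CPM of a sum of 44.3 CPM (replicate 1). Its highest was 305 CPM of a sum of 758 CPM (replicate 4). Myh8, the perinatal myosin, stood at 576 and 120 CPM in SC gel replicates 1 and 3 and at 3.95, 18.1 and 46.6 CPM in ID gel replicates 1, 3 and 5, against at most 12 CPM in ID saline and 21.2 CPM in SC saline. Myh3, the embryonic myosin, and Actc1, the cardiac actin, were instead higher in these ID gel libraries than in these SC gel libraries. Myh3 stood at 3.66, 16.9 and 81.2 CPM in ID gel replicates 1, 3 and 5, against 2.49 and 0.227 CPM in SC gel replicates 1 and 3. It reached 24.2 CPM in ID saline and 21.2 CPM in SC saline, so only ID gel replicate 5 lay above saline. ID gel replicate 1 lay below all ID saline libraries. Actc1 stood at 9.83, 40.6 and 179 CPM in the ID gel libraries, against 3.74 and 0.113 CPM in the SC gel libraries. It was at most 8.05 CPM in ID saline and 2.68 CPM in SC saline. Myosin genes are alike in sequence, and how reads were split between them is not stated.

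**Figure D4:**
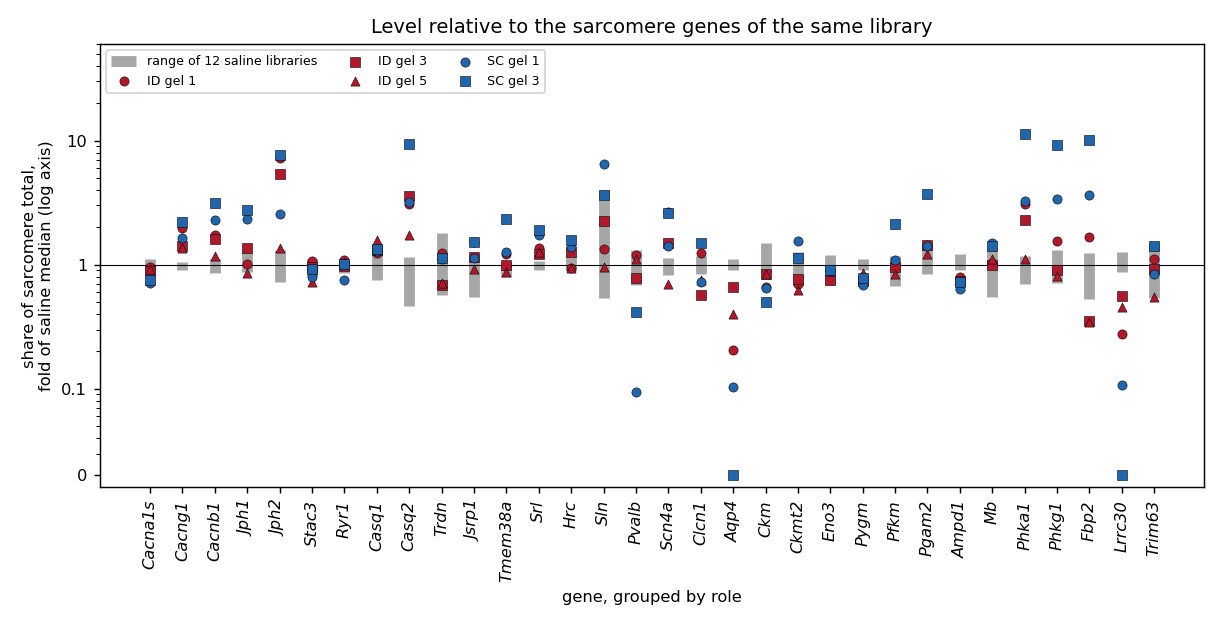
Share of each gene in the sarcomere total of the same library, as a multiple of the median of 12 saline libraries on a log axis, in the 5 gel libraries with over 500 CPM of sarcomere RNA; grey bars span the saline libraries, and points drawn at the foot of the axis are at 0. Aqp4 and Lrrc30 lie below the grey bars in all 5 libraries, and Casq2 and Jph2 above them.

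The gel groups of the sites were then compared directly. Of the 31 genes, 22 were higher in ID gel than in SC gel and 0 were lower by edgeR's quasi-likelihood test, where 40.1% of all tested genes were higher and 28.0% lower. The 9 that did not pass were Ckm, Ckmt2, Fbp2, Jph1, Mb, Phka1, Phkg1, Sln and Trdn. The count rested on ID gel replicate 5, whose sarcomere total was 20983 CPM: without it 3 genes passed, Jph2 higher and Phkg1 and Fbp2 lower. With SC gel replicate 1 left out as well, 17 were higher and 2 lower. Limma voom on all libraries called 2, Jph2 higher and Fbp2 lower.

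Jph2 was the 1 gene whose gel groups did not overlap, as in 27.4% of tested genes with ID gel above. It stood at 31.1, 30.8, 33.9, 21.4, 59.8 and 23.2 CPM in ID gel replicates 1 to 6, against 13.4, 9.22, 9.13, 8.75, 7.75 and 8.46 CPM in SC gel replicates 1 to 6. The log2 fold change was 1.82 ± 0.27 (adjusted p = 3.51e-06), and it passed the test in all 22 alternative settings. The summed level of 8 macrophage genes, none at 0, was 7335 to 9547 CPM in ID gel, against 949 to 3040 CPM in SC gel, and that of 7 smooth muscle genes was 117 to 388 CPM in ID gel, against 370 to 549 CPM in SC gel. Their part in the Jph2 difference was not tested.

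The difference between the gel effects, ID minus SC, passed for 4 of 31 genes, all with a positive sign, where 32.8% of tested genes did so. These were Jph2 (1.55 ± 0.37, adjusted p = 0.00113), Lrrc30 (4.89 ± 1.46, adjusted p = 0.00673), Aqp4 (4.50 ± 1.37, adjusted p = 0.00764) and Clcn1 (2.54 ± 1.08, adjusted p = 0.0481). Pvalb passed as well, at 5.22 ± 1.34 (adjusted p = 0.00207). Without ID gel replicate 5, Jph2 was the 1 gene of these 4 that passed, and Phkg1 and Fbp2 passed with a negative sign. Fbp2, at -1.45 ± 0.70 (adjusted p = 0.0814) with all libraries, was -2.53 to -1.14 over the alternatives and passed in 7 of 34. The count was 9, 11 and 10 without ID gel replicates 2, 4 and 6, and 23 without SC gel replicate 1, all with a positive sign. Without ID gel replicate 5 the difference was 2.43 for Aqp4 (adjusted p = 0.0824), 2.61 for Lrrc30 (adjusted p = 0.0899) and 0.48 for Clcn1 (adjusted p = 0.678), while it was 1.28 for Jph2 (adjusted p = 0.00277) and 2.92 for Pvalb (adjusted p = 0.013). Both gel effects of the other 27 genes were negative, and the difference between them did not pass.

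The saline groups gave the baseline difference between the sites. Of the 31 genes, 0 differed between ID saline and SC saline by edgeR's quasi-likelihood test with adjusted p, where 3.22% of all tested genes differed. An unadjusted p under 0.05 was found for 0 of the 31, and for 3211 of the 14763 tested genes. The log2 fold changes ran from -0.96 ± 0.77 (Sln) to 0.71 ± 0.73 (Trim63), with SE of up to 1.44 (Ckm). The smallest SE was 0.26 (Jph2), so what difference could be detected varied between genes. These SE and p-values rest on a spread estimated over all 24 libraries, gel libraries included. They therefore do not describe the spread of the saline libraries alone. DESeq2 called 0 and limma voom 1, Casq2. Casq2 was also the 1 gene whose saline groups did not overlap, with all ID saline libraries (42.7 to 55.9 CPM) above all SC saline libraries (23.7 to 38.1 CPM), as in 2.01% of tested genes. Its log2 fold change was 0.70 ± 0.44 (adjusted p = 0.365) with the spread shared by all groups and 0.68 (adjusted p = 0.0104) in a fit of the saline libraries alone. Against the sarcomere total of each library, 0 of 31 genes differed between the saline groups by adjusted p, where 0.584% of tested genes were called. There 3 of the 31 had an unadjusted p under 0.05, as did 1974 of 14220 tested genes.

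Other genes of the same pathways were counted from lists. Of all tested genes, 36.6% were higher and 37.0% lower in ID gel, and 24.7% were higher and 26.1% lower in SC gel. Of 20 further excitation-contraction genes, 2 were higher and 16 lower in ID gel (median log2 fold change -3.10), and 0 were higher and 19 lower in SC gel (median -3.47). Of 19 further energy genes, 2 were higher and 14 lower in ID gel (median -2.26), and 0 were higher and 17 lower in SC gel (median -3.05). Ppp1r3a, which targets a phosphatase to glycogen, changed by -4.76 and -7.13. Hk2, a hexokinase, was opposite between the sites, at 2.05 ± 0.19 in ID gel (adjusted p = 1.61e-09) and -1 ± 0.19 in SC gel (adjusted p = 0.000132).

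Of 12 genes of the neuromuscular junction and of denervation, 2 were higher and 8 lower in ID gel (median -1.45), and 0 were higher and 10 lower in SC gel (median -1.79). Chrnb1, an acetylcholine receptor subunit, changed by -3.27 and -3.43. Ncam1, a cell adhesion gene, changed by 1.23 in ID gel and by -1.99 in SC gel. Of 9 atrophy genes, 0 were higher and 8 lower at each site (medians -3.20 and -2.28). Beside both lists, 36.6% of all tested genes were higher and 37.0% lower in ID gel, and 24.7% higher and 26.1% lower in SC gel. Fbxo40, a muscle ubiquitin ligase subunit, changed by -4.57 and -8.12.

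Enzymes that catalyse the same steps in other tissues were mostly higher in ID gel. Of 13 paralogs of the energy genes, 11 were higher and 2 lower in ID gel (median 1.11), and 6 were higher and 2 lower in SC gel (median 0.22), where 36.6% and 24.7% of tested genes were higher. Eno2, a neuronal enolase, stood at 28.7, 46.7 and 59.9 FPKM in ID gel, against 2.18, 3.40 and 4.55 FPKM in ID saline, a log2 fold change of 3.87 ± 0.21 (adjusted p = 9.46e-13). Eno1, the general enolase, reached a median of 612 FPKM in ID gel, against 104 FPKM in ID saline, while Eno3 had medians of 11.5 FPKM in ID gel and 865 FPKM in ID saline. By length-scaled level the muscle enolase was thus below the general one in ID gel and above it in ID saline. In SC gel the medians were 152 FPKM for Eno1 and 2.59 FPKM for Eno3, against 82.8 and 581 FPKM in SC saline.

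Ckb, the brain-type creatine kinase, had medians of 199 FPKM in ID gel and 58.9 FPKM in ID saline, and of 115 FPKM in SC gel and 54.1 FPKM in SC saline. Its log2 fold changes were 1.93 ± 0.17 (adjusted p = 3.45e-10) and 0.93 ± 0.16 (adjusted p = 4.8e-05). Pfkl and Pygl, the liver-type phosphofructokinase and phosphorylase, changed by 2.91 and 2.46 in ID gel, and had values of 0.11 (adjusted p = 0.5) and 0.22 (adjusted p = 0.0787) in SC gel. Fbp1, the paralog of Fbp2, was lower, at -4.97 ± 0.51 in ID gel (adjusted p = 8.12e-09) and -3.80 ± 0.46 in SC gel (adjusted p = 5.34e-07). Of 10 tested paralogs of the calcium and channel genes, 1 was higher and 6 lower in ID gel, and 1 was higher and 1 lower in SC gel. The shares of all tested genes were 36.6% higher and 37.0% lower in ID gel, and 24.7% higher and 26.1% lower in SC gel. The sources used here do not give how the authors' counting shared reads between paralogs.

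**Figure D5:**
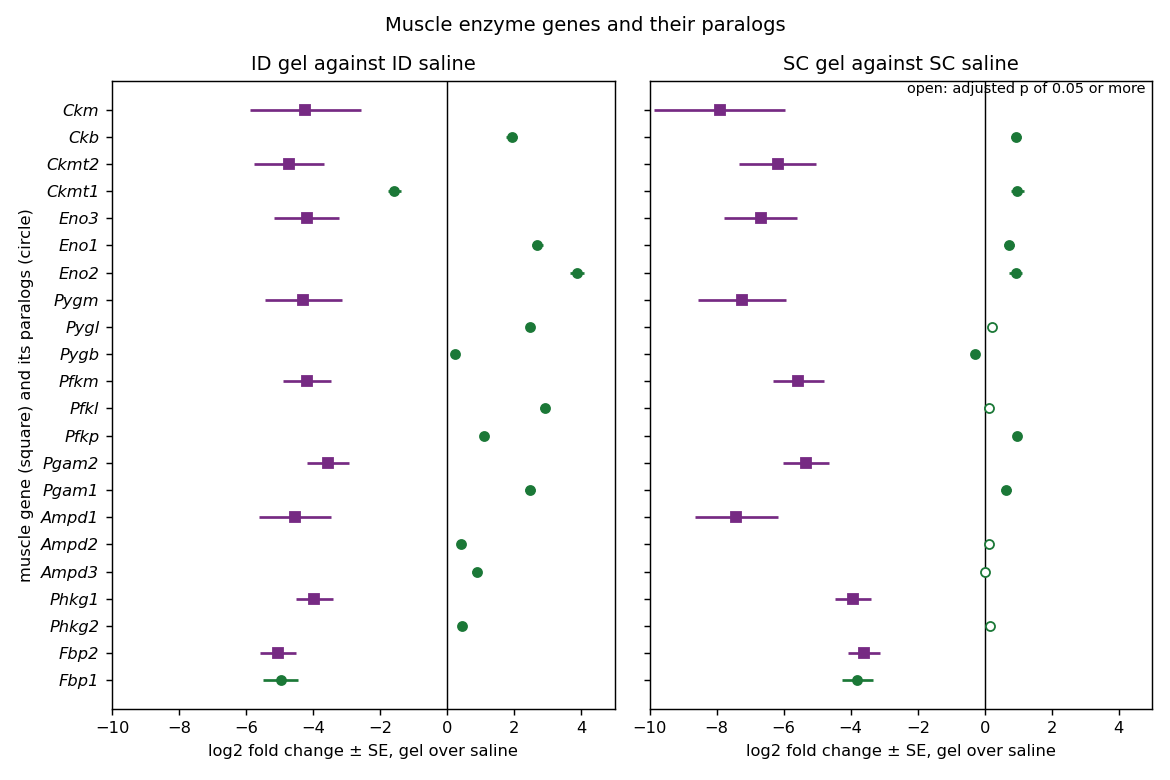
Log2 fold change with its SE, gel over saline, of the muscle energy genes (purple squares) and of their paralogs (green circles), at the intradermal site on the left and the subcutaneous site on the right; open symbols did not pass at 0.05. Every muscle gene lies left of 0, whereas 11 of 13 paralogs lie right of 0 and passed at the intradermal site.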

How the data were processed

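Stranded mRNA libraries of 24 dorsal skin samples were sequenced, per the labels' protocols. For every gene and library the authors deposited a read count and its FPKM, per the file headers. Those FPKM equal the count over gene length and a library total. Among the genes checked in a library that total was constant within 0.001%. It lay within 0.032% of the library's summed counts. The submitters' processing notes list StringTie 1.3.3b, DESeq2 1.12.4, Trimmomatic 0.36 and FastQC 0.11.2. The sources used here do not give the aligner, the counter, the strand setting or the treatment of shared reads. In the notes the build is Rnor_6.0, yet 47 genes sit on unplaced sequences named as in a later assembly, so no coordinates from the table are printed. An emptied line of the table is not analysed here.

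The counts went into edgeR 4.0.16 (R 4.3.3, with limma 3.58.1). filterByExpr by group left 14763 genes, and TMM factors were 0.845 to 1.22. A quasi-likelihood model with a mean for each group used all 24 libraries, leaving 20 residual degrees of freedom, and p-values were adjusted by Benjamini-Hochberg over all tested genes at 0.05. Standard errors are those implied by the test. For the saline groups the sarcomere total of a library also took the place of its size. Libraries of a group differed by more than sampling noise (chi-square per gene of at least 5.64), so none was merged. The main model did not pair samples by replicate number, and whether equal numbers came from the same animal could not be told. Alternatives were DESeq2 1.42.0, limma voom, RLE factors, other filters on low counts, the compared groups alone, a replicate block, limma on log2(FPKM + 1) or log2(FPKM + 0.1), each library left out in turn and, added after seeing the data, pairs of libraries left out.

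The members and gene lists were chosen with earlier results of these data known. Ryr1, Cacna1s, Casq1, Casq2, Sln, Pvalb, Ckm, Pygm, Mb, Aqp4 and Trim63 were to be given in full, with at most 3 genes per direction from the other lists and any paralog. Jph2, Phka1, Lrrc30, Myh3, Myh7, Myh8, Actc1 and the promoters were singled out after their values were seen. The values of 2 further excitation-contraction genes are not reported here.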

Additional observations from a re-analysis of the deposited data

Results flagged for a closer look

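A library stood far from the other 5 of its group in 8 of 128 groups of 6 values, where chance alone gives about 1 in 20. The groups share the same 24 libraries and are not independent, so the count cannot be weighed against that rate. In SC gel this was replicate 1 for Cacnb1 (6.18 CPM), Jph2 (13.4 CPM), Stac3 (3.89 CPM), Sln (8.98 CPM) and Lrrc30 (0.104 CPM). For Lrrc30 the other 5 SC gel libraries were at 0, so any count in replicate 1 (here 2) would have been flagged. In ID gel it was replicate 5 for Phka1 (49.4 CPM), Phkg1 (16 CPM) and Lrrc30 (3.66 CPM). These libraries had the highest sarcomere total of their groups, 2507 CPM in SC gel replicate 1 and 20983 CPM in ID gel replicate 5.

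The gel effect differed between the sites by the test of the difference itself for Pvalb (5.22 on the log2 scale, ID minus SC), Lrrc30 (4.89), Aqp4 (4.50), Clcn1 (2.54) and Jph2 (1.55). The difference passed in all 34 alternative settings for Jph2, in 31 for Pvalb, in 30 each for Aqp4 and Lrrc30 and in 9 for Clcn1.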

How the results depend on the processing

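At each site the count of 31 genes lower in gel was the same under every alternative run. For ID gel against SC gel, 22 genes passed, against 2 by limma voom, 2 with only the compared groups, 5 with the replicate block, 2 on log2(FPKM + 1), 3 on log2(FPKM + 0.1) and 3 to 28 with 1 library left out. Hrc, at 2.20, was -0.13 by limma voom, and Phkg1, at 0.02, was -1.37 to 0.32 with 1 library left out and -1.04 without both ID gel replicate 5 and SC gel replicate 1. For the difference between the gel effects, 4 genes passed, all positive, against 2 by limma voom and on either FPKM scale, where Jph2 was positive and Fbp2, which is not among the 4, negative. It was 3 to 23 with 1 library left out (1 positive and 2 negative without ID gel replicate 5, 9, 11 and 10 without ID gel replicates 2, 4 and 6, 23 without SC gel replicate 1). Between the saline groups 0 passed, against 1 by limma voom and 1 with only the saline groups. The causes were not tested. Correlations of same-numbered deviations ran from -0.24 to 0.42. In 8 of 36 comparisons of a library with another group, the closest library there had the same number, and libraries recur among these comparisons. Such values cannot tell whether equal numbers came from the same animal. The replicate block gave 2 genes, Mb and Sln, relative to the sarcomere total, against 0 without it, and left the counts of 31 as they were. The log2 fold changes moved widely over the alternatives, in ID gel and SC gel by -9.98 to -3.97 and -13.36 to -7.61 for Ckm, -10.48 to -3.40 and -10.52 to -5.76 for Mb, -9.40 to -3.91 and -9.83 to -5.49 for Cacna1s, -7.50 to -3.66 and -8.17 to -5.44 for Ryr1, -7.99 to -3.17 and -8.28 to -6.26 for Casq1, -6.67 to -3.33 and -8.85 to -4.26 for Sln, and -8.82 to -3.60 and -10.85 to -3.70 for Aqp4. Jph2 moved least in ID gel, by -2.52 to -2.01. Counts in single gel libraries went down to 0 for Ckm, Mb, Cacna1s, Cacng1, Jph1, Clcn1, Fbp2, Sln, Aqp4, Lrrc30, Ckmt2 and Trdn. The lowest was 3 counts for Casq1 and 11 for Ryr1, both in ID gel. Of the 7465 counts of Ryr1 in ID gel, 6161 were in replicate 5. The part of low counts and of single libraries in the spread of these folds was not tested.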
